A study of Mus musculus with 12 samples.

Results

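Jejunum of Tlr2 knockout mice was compared with jejunum of wild-type mice after both had been given methotrexate. The comparison takes the 3 arrays of treated knockout mice against the 3 arrays of treated wild-type mice, chosen by their titles, which is 6 of the 12 arrays of the series. The wild type is C57BL6/J and the knockout B6.129-Tlr2tm1Kir/J, a germline knockout whose targeted Tlr2 allele came from another strain and is carried on the B6 background. Treated mice of both genotypes received methotrexate into the peritoneum at 40 mg per kg of body weight per day for 4 days and were killed on day 7. The 6 untreated mice, 3 of each genotype, serve here only as the background of the genotype difference, and no injection or day is recorded for them. RNA came from the proximal jejunum, 1 mouse per array, and every level below is a log2 signal as deposited, so that a difference of 1 is a 2-fold change.

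TLR2 is a receptor on epithelial, stromal and immune cells that recognises bacterial lipoproteins together with TLR1 or TLR6 and signals through the adaptor MYD88 to the transcription factor NF-kB. Methotrexate is an antifolate that blocks dihydrofolate reductase and stops the synthesis of thymidylate and purines, so that it strikes the dividing crypt cells from which the intestinal lining is renewed. The resulting loss of epithelium is known as mucositis, and the series asked whether it differs in mice without TLR2. In a healthy jejunum, stem cells at the crypt base feed absorptive enterocytes and secretory cells, which lie on a core of fibroblasts, vessels, nerves and immune cells.

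Of 18820 genes read by a probe set with a single gene symbol, 6948 (36.9%) differed between treated knockout and treated wild type at an adjusted p under 0.05, the threshold for "rose", "fell" and "called" throughout. In the knockout 3793 genes (20.2%) were higher and 3155 (16.8%) lower. The size was at least 2-fold for 3284 genes, at least 4-fold for 950 and at least 16-fold for 140, and of those 140 genes 117 were lower and 23 higher in the knockout. The arrays of the groups did not overlap for 6749 of the called genes, which the calls largely imply, so the count adds no support to them. The median difference over all genes was -0.001, and the quartiles were -0.23 and 0.35. Higher genes made up 54.6% of the calls on the deposited values but 34.1% when each array was centred on its median, which moved the median of all genes to -0.231, so the balance of rises and falls depends on the scaling. In untreated mice 2 genes (0.0106%) differed between the genotypes, and for 4479 genes (23.8%) the genotype difference itself differed between treated and untreated mice.

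**Figure D1:**
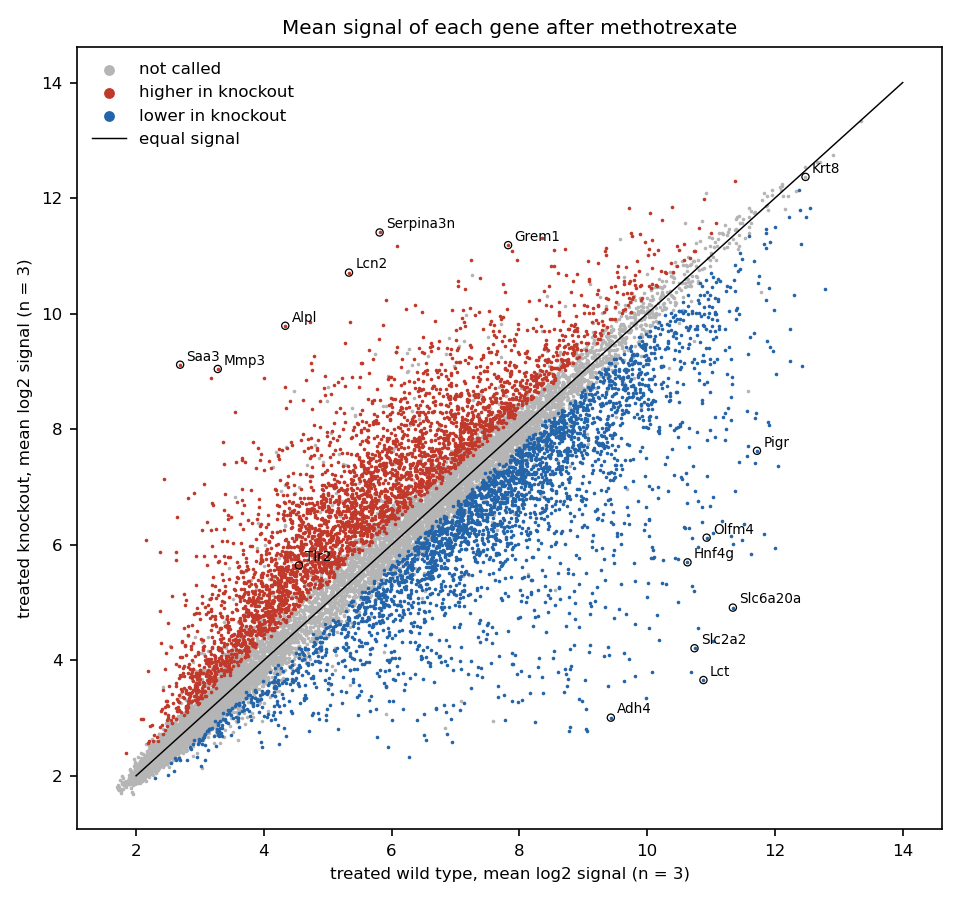
Mean log2 signal of each of 18820 genes in treated wild-type mice (horizontal axis) and treated knockout mice (vertical axis), 3 arrays each, with the 3793 genes called higher in red, the 3155 called lower in blue and the others in grey. Genes bright in the wild type and dim in the knockout, such as Lct, form the wide lower right of the cloud, while Krt8 lies near the line of equal signal.

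The arrays held epithelium in both groups, as Epcam, Vil1 and Cdh1 were all above 8 on the log2 scale on each of the 6 arrays. These genes do not tell the segments of the intestine apart. The enterocyte genes Lct, Sis and Fabp2, checked beside them, were high in the treated wild type only, with lowest values of 9.89, 11.66 and 11.83. In the treated knockout Lct was 3.45 to 3.88, Sis 4.27 to 7.91 and Fabp2 7.22 to 9.09. For the knockout the check thus rests on Epcam, Vil1 and Cdh1. Arrays correlated at 0.984 to 0.990 within the treated wild type, at 0.967 to 0.990 within the treated knockout and at 0.925 to 0.945 between them. Some arrays also held RNA of other tissue. The mean of 17 genes of pancreatic acinar cells was 5.51, 11.52 and 4.88 in wild-type replicates 1, 2 and 3 and 4.41, 12.21 and 12.26 in knockout replicates 1, 2 and 3, so 1 wild-type and 2 knockout arrays carried pancreatic RNA. With a term for it in the fit 6972 genes were called, and with only the arrays that carry it or only those that do not, 6887 and 6650. Genes of lymphoid follicles were high in wild-type replicate 1 (Cr2 at 6.29 and Ms4a1 at 6.52, against at most 3.27 and 4.42 on the other 5 arrays). The fat gene Adipoq was 2.80 to 3.40 on all 6 arrays. The liver gene Alb was 8.16 in wild-type replicate 3 and 3.16 to 4.28 on the others. Of the wild-type arrays it also had the lowest Pdx1, a factor of the proximal intestine (7.92, 7.97 and 5.45), and the highest Osr2, taken here as an ileal marker (3.61, 4.52 and 7.32). The part of these differences between arrays in the results below was not tested beyond the fits named.

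The targeted gene itself was not lower in the knockout. Tlr2 read 4.49, 4.65 and 4.51 in the treated wild type and 6.18, 5.46 and 5.28 in the treated knockout. All knockout arrays lay above all wild-type arrays, by 1.09 ± 0.23 (standard error, here and after every log2 difference, with 3 mice per group; adjusted p = 0.00285). In untreated mice the same difference was 0.32 ± 0.23, and the change between untreated and treated mice was 0.77 ± 0.33 (adjusted p = 0.124). In treated mice it was 0.72 on the arrays with pancreatic RNA and 1.68 on those without. The gene is read by a single probe set whose place relative to the deletion is unknown, which makes it no check of a genotype or a label. Among genes within 10 Mb of Tlr2 on its chromosome, where DNA of the donor strain may remain, 82 of 212 (38.7%) were called in treated mice, close to the 36.9% of all genes, and 0 in untreated mice.

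Promoters are shown first, of the pair of genes with the largest fitted rise and the pair with the largest fitted fall, because they carry the extremes of the comparison. They are 300 bases from 250 before to 50 after the gene's start, 5′ to 3′ on the gene's strand, from RefSeq on GRCm38.p6, with matches to any of 9 motifs in capitals. Saa3 lies at chr7:46715627-46715926 (minus strand), Mmp3 at chr9:7445572-7445871 (plus), Lct at chr1:128328269-128328568 (minus) and Sectm1b at chr11:121063520-121063819 (minus).
Saa3: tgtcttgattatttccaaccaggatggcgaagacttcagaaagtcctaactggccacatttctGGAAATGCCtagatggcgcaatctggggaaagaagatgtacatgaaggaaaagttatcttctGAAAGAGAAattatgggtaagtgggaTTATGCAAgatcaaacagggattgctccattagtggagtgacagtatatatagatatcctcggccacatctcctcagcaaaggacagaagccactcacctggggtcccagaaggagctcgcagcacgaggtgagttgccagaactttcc
Mmp3: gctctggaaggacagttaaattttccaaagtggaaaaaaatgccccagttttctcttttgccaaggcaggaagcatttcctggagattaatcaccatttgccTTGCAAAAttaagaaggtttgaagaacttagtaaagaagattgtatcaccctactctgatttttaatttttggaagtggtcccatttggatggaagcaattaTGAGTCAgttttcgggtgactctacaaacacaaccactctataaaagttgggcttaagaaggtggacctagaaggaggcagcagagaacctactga
Lct: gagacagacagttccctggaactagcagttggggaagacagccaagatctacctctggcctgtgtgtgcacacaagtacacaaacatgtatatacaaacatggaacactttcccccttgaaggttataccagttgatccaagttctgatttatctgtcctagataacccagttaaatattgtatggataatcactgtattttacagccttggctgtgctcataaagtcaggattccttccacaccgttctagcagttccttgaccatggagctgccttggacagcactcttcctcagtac
Sectm1b: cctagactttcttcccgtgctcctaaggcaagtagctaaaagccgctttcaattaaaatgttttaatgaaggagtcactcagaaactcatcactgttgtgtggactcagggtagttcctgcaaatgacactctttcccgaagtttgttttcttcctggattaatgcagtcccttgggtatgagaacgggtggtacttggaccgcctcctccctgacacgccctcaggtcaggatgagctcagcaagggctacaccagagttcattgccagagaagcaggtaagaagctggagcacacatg
In the Saa3 promoter the capitals mark a match to the NF-kB motif GGNNTTTCC (minus strand), one to the interferon motif GAAANNGAA (plus) and one to the C/EBP motif TTGCNNAA (minus). In the Mmp3 promoter they mark one to C/EBP (plus) and one to the AP-1 motif TGANTCA, which reads the same on both strands. The windows of Lct and Sectm1b held no match to these motifs or to STAT (TTCCNGGAA), HNF4 (CAAAGTCCA), HNF1 (GTTAATNAT), AGATAAG, bound by GATA factors, and TTTATGG, bound by CDX factors, which says only that these letters are not in these windows.

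Over the 14749 genes with a promoter in that table, searched on both strands, the letters of the HNF4 motif, which binds HNF4 factors of gut and liver, were in 0.4% of all promoters. They were in 1.46% of the 1164 promoters of genes at least 2-fold lower and in 0.216% of the 1387 of genes at least 2-fold higher. Of the 102 promoters of genes at least 16-fold lower, 6 (5.88%) held them, and of the 15 of genes at least 16-fold higher, 1 (6.67%). The HNF1 motif was in 0.685% of all promoters, 1.37% of the lower, 0.433% of the higher and 4.9% of the 16-fold lower ones, and in 0 of the 15 promoters. NF-kB letters stood in 5.65% of all, 5.26% of the higher and 5.76% of the lower promoters, and AP-1 letters in 6.77%, 7.79% and 7.39%. C/EBP was at 9.82%, 10.7% and 10.1%, the interferon motif at 7.98%, 8.72% and 7.13%, GATA at 2.53%, 2.52% and 3.18%, CDX at 2.31%, 2.16% and 2.66% and STAT at 1.21%, 1.08% and 1.03%. In the 15 promoters of genes at least 16-fold higher, C/EBP letters were in 4 (26.7%), NF-kB in 3 (20%) and AP-1 in 2 (13.3%). In the 102 of genes at least 16-fold lower, C/EBP was in 15.7%, the interferon motif in 10.8%, AP-1 in 7.84%, NF-kB and CDX in 4.9% each, GATA in 3.92% and STAT in 0.98%. These shares are descriptions of letters in a short window, and a match is not a binding site.

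Lct encodes lactase, the brush-border enzyme that splits milk sugar. It read 11.36, 9.89 and 11.40 in the treated wild type and 3.88, 3.45 and 3.64 in the treated knockout. The groups were far apart, with a fall of 7.22 ± 0.35 (adjusted p = 6.4e-08). No detection call comes with the deposited values, and a signal under the array medians of 4.37 to 4.56, as that of Lct in the knockout or Saa3 in the wild type, is not shown to be above background. Differences of single genes against such levels are therefore given on the log2 scale with no fold, and the order among the largest is uncertain. The gene counts and promoter groups named by fold were cut on the log2 difference of called genes alone and include such genes. Sectm1b, a secreted and transmembrane protein, read 11.03, 9.98 and 11.04 against 3.27, 3.69 and 4.41. It fell by 6.89 ± 0.31 (adjusted p = 3.92e-08). Slc2a2, the basolateral glucose and fructose transporter GLUT2, read 10.92, 10.47 and 10.83 in wild type. In the knockout it spread over 2.93, 4.32 and 5.38, lowest in replicate 1, and the fall was 6.53 ± 0.45 (adjusted p = 7.41e-07).

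Saa3, an acute-phase apolipoprotein made at sites of inflammation, stood at 2.50, 2.77 and 2.80 in the treated wild type and 10.62, 8.13 and 8.60 in the treated knockout. It rose by 6.43 ± 0.48 (adjusted p = 1.25e-06), with the highest value in knockout replicate 1. Mmp3, the stromal protease stromelysin-1, was 3.41, 3.42 and 3.00 against 9.43, 8.92 and 8.78. That is a rise of 5.76 ± 0.20 (adjusted p = 9.13e-09). Pi15, a secreted protease inhibitor, rose by 5.71 ± 0.35, and Serpina3n, a serine protease inhibitor of the acute phase, by 5.59 ± 0.28. Alpl, the tissue-nonspecific alkaline phosphatase, read 4.22, 4.60 and 4.18 against 9.60, 9.83 and 9.93 and rose by 5.45 ± 0.16. Igfbp5, a binding protein of insulin-like growth factors, had among the tightest replicates, at 6.06, 6.15 and 6.05 against 11.19, 11.15 and 11.16 (rise 5.08 ± 0.13, adjusted p = 2.08e-09).

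**Figure D2:**
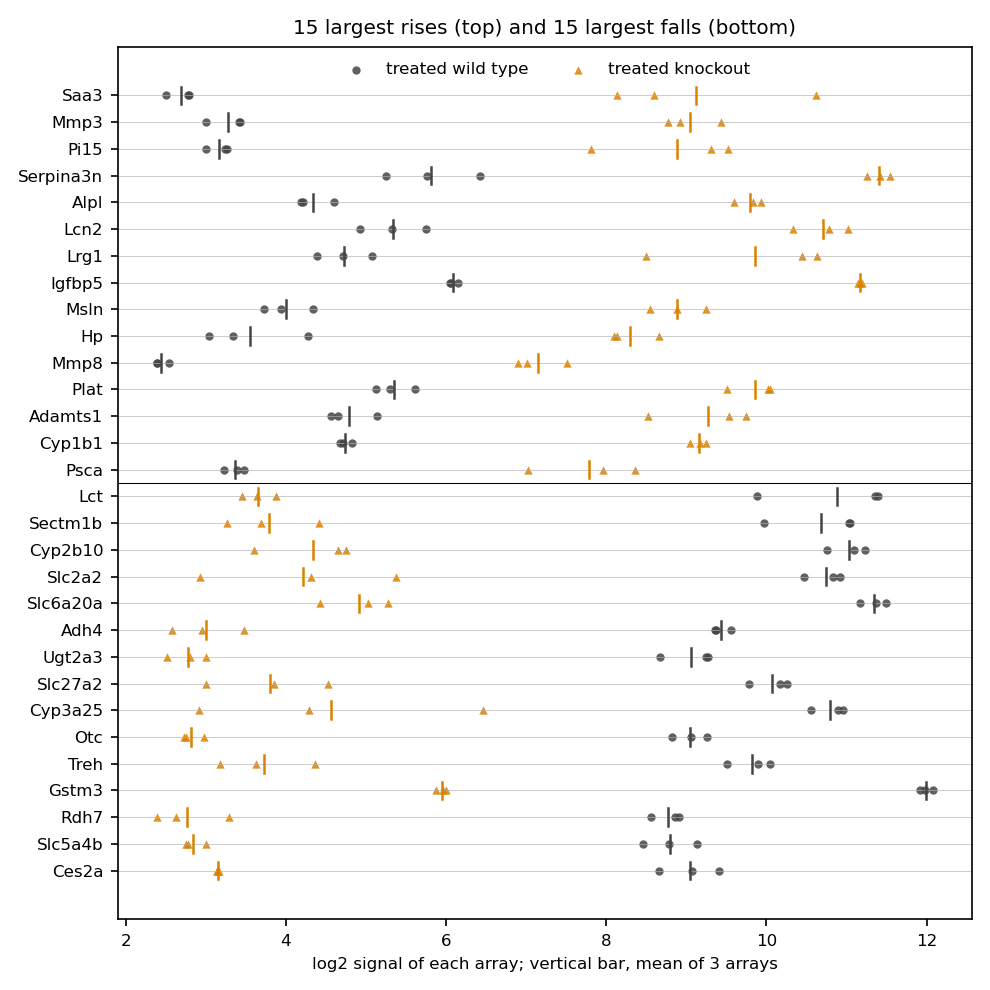
Log2 signal on each of the 3 treated wild-type arrays (grey circles) and 3 treated knockout arrays (orange triangles) for the 15 genes with the largest rise and the 15 with the largest fall in the knockout, with bars at the means. No array of one group overlaps the other for these genes, as the choice required, and knockout arrays spread most for Cyp3a25, from 2.92 to 6.46.

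The untreated mice give the background of these differences. Among the 10 largest rises the genotype difference without methotrexate ran from -0.25 (Mmp3) to 0.29 (Lcn2), and among the 10 largest falls from -0.64 (Adh4) to -0.04 (Otc), none of them called. The differences of these genes in treated mice minus those in untreated mice ran from 4.66 to 6.5 for the rises and from -7.05 to -5.69 for the falls, and all 20 passed the test of that change. For both genes called without methotrexate the difference went the same way with it. Mmrn1, a protein of platelets and lymphatic endothelium, was 3.17, 3.00 and 2.87 in untreated wild type and 5.46, 5.47 and 5.43 in untreated knockout. After methotrexate it was 2.82, 2.77 and 2.86 against 6.76, 7.16 and 6.5, a difference of 3.99 ± 0.15 (adjusted p = 1.24e-08), which was 1.55 ± 0.21 above that in untreated mice. Cyp1a1, an enzyme induced through the aryl hydrocarbon receptor, was chosen for being called in untreated mice. It was 6.42, 7.09 and 7.37 in the treated wild type and 2.88, 3.14 and 3.66 in the treated knockout and fell by 3.73 ± 0.27, against a difference of -2.22 ± 0.27 in untreated mice (adjusted p = 0.0425).

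**Figure D3:**
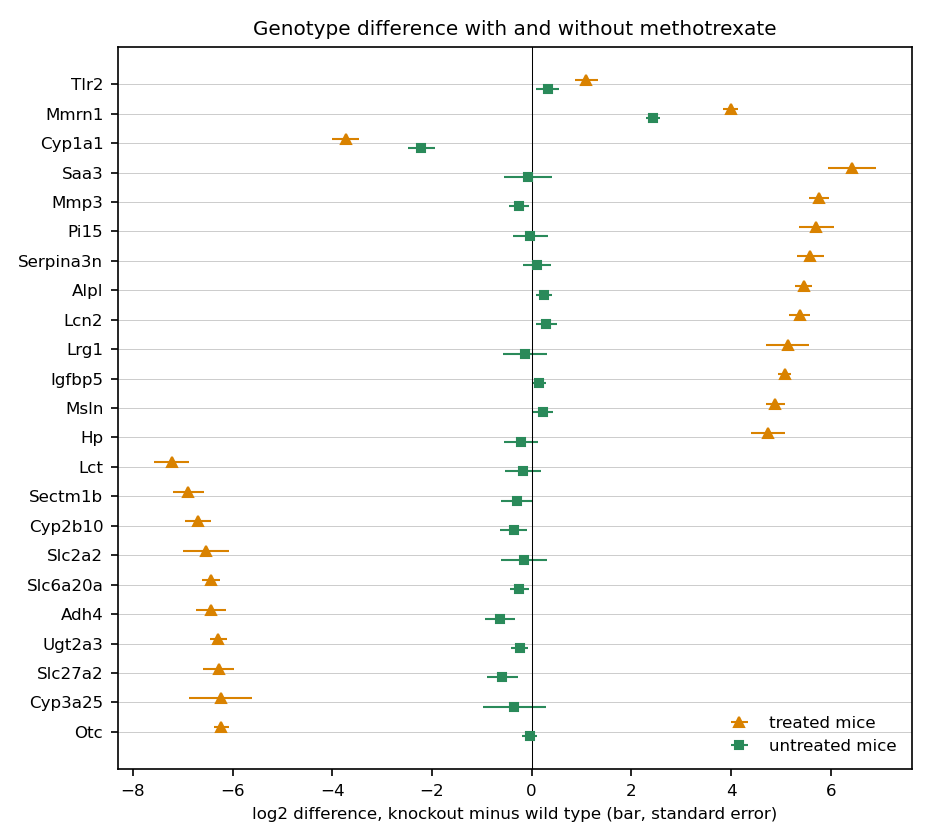
Log2 difference between knockout and wild type in treated mice (orange triangles) and untreated mice (green squares), with standard errors and 3 mice per group, for Tlr2, the 2 genes called in untreated mice and the 10 largest rises and falls. Differences of the leading genes lie near 0 without methotrexate and beyond 4 with it, while Mmrn1 and Cyp1a1 differ in both.

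Genes by which enterocytes digest and take up food were lower in the treated knockout as a group. Of 24 measured genes of digestion and nutrient transport 21 fell and 0 rose, with a median difference of -4.31. In whole tissue, fewer cells of a type and less RNA per cell cannot be told apart. Sis, which encodes sucrase-isomaltase, was 11.84, 11.66 and 12 in the wild type and 4.27, 6.36 and 7.91 in the knockout. It fell by 5.65 ± 0.64 (adjusted p = 3.01e-05). The knockout arrays were far below but uneven, lowest in replicate 1, an order that the means of the whole list share (5.40, 6.27 and 6.84, against 10.42, 10.01 and 10.50 in the wild type). Slc5a1, the sodium-glucose transporter SGLT1, fell by 4.26 ± 0.32, Slc6a20a, a transporter of proline and other imino acids, by 6.43 ± 0.18, Treh, the trehalase of the brush border, by 6.09 ± 0.26, and Mme, a membrane peptidase, by 4.84 ± 0.18.

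Of 27 genes of lipid absorption 22 fell and 2 rose (median -2.36). Mogat2, which rebuilds triglyceride in the enterocyte, read 10.91, 10.64 and 11.01 against 7.09, 5.97 and 6.90. It fell by 4.2 ± 0.24 (adjusted p = 1.91e-07). Mttp, the triglyceride transfer protein that loads chylomicrons, fell by 3.50 ± 0.50, Dgat1 by 2.89 ± 0.16 and Apob by 2.3 ± 0.33. The apolipoprotein gene Apoa1 was uneven in the knockout at 6.63, 9.69 and 10.97, against 12.46, 12.27 and 12.56 (fall of 3.34 ± 0.78, adjusted p = 0.00532). Without knockout replicate 1 it fell by 2.10. Sar1b, a small GTPase needed to ship chylomicrons from the endoplasmic reticulum, fell by 1.68 ± 0.12.

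Drug- and toxin-metabolising genes fell in 29 of 31 cases with 0 rises (median -4.15). Cyp2b10, a cytochrome induced through the receptor CAR, read 11.09, 10.76 and 11.23 against 3.60, 4.75 and 4.65 and fell by 6.69 ± 0.26 (adjusted p = 1.54e-08). Cyp3a11, the main drug-oxidising cytochrome of mouse gut and liver, fell by 5.54 ± 0.27, Ugt2a3, a glucuronosyltransferase, by 6.28 ± 0.17, and Ces2a, a carboxylesterase, by 5.90 ± 0.20. Gstm3, a glutathione transferase, was 12.08, 11.92 and 11.98 against 5.96, 6 and 5.88. Near-identical members of the Cyp, Ugt, Ces and Gst families may share probe sequence, so their separate values are uncertain.

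Transcription factors that hold intestinal identity were lower too, 17 of 20 with 0 higher (median -1.56). The largest fall among those named was that of Hnf4g, an enterocyte nuclear receptor, at 10.64, 10.57 and 10.69 against 6.46, 5.24 and 5.38. It fell by 4.94 ± 0.25 or 30.6-fold (adjusted p = 8.14e-08). Its relative Hnf4a fell by 1.47 ± 0.21 (by 0.907 on the arrays without pancreatic RNA), Cdx2, the master regulator of intestinal fate, by 1.70 ± 0.31, Gata4 by 1.57 ± 0.18 and Gata6 by 1.66 ± 0.12. Among ligand-bound receptors, Ppara, the fatty acid sensor, fell by 3.50 ± 0.20, Vdr, the vitamin D receptor, by 3.37 ± 0.27, and Nr1i2, the drug sensor PXR, by 2.62 ± 0.16.

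Mitochondrial genes fell by less but without exception among those listed. All 34 measured genes of oxidative phosphorylation were called lower, with a median of -1 and a range of -1.57 to -0.50, and 30 to 34 of them were called lower in each setting run. Sdhb, a subunit of succinate dehydrogenase, was 10.52, 10.24 and 10.20 against 8.77, 8.66 and 8.81 (fall of 1.57 ± 0.11, adjusted p = 6.52e-07). Ndufa9 of complex I fell by 1.28 ± 0.14, Atp5o of the ATP synthase by 1.12 ± 0.10 and Cox5a of complex IV by 1.03 ± 0.14. Of 24 genes of fatty acid oxidation and PPAR alpha targets 18 fell and 1 rose (median -1.25), among them Acaa1b (2.81 ± 0.15 lower) and Hadh, which fell by 2.35 ± 0.10. The rate-setting Cpt1a read 10.32, 10.35 and 10.18 against 10.16, 10.01 and 10.09, a difference of -0.20 (95% interval -0.54 to 0.14, adjusted p = 0.369).

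Among 19 genes of amino acid, citrulline and urea cycle enzymes 9 rose and 7 fell (median 0.59). Otc, ornithine transcarbamylase, read 9.06, 8.82 and 9.26 against 2.73, 2.75 and 2.97 and fell by 6.23 ± 0.15 (adjusted p = 1.57e-09). Cps1, which makes carbamoyl phosphate for it, fell by 4.75 ± 0.32 and Nags, whose product activates Cps1, by 3.92 ± 0.19. Among those that rose were the cystine carrier Slc7a11 (3.26 ± 0.34), glutamine synthetase Glul (2.23 ± 0.26) and arginase Arg1 (1.67 ± 0.14). In the glycolysis and hypoxia list of 24 genes 7 rose and 11 fell (29.2% and 45.8%, against 20.2% and 16.8% of all genes). The glucose transporter Slc2a1 rose by 1.74 ± 0.25 and hexokinase Hk1 by 1.59 ± 0.12, while Tpi1 fell by 1.33 ± 0.13 and the lactate carrier Slc16a3 by 1.86 ± 0.23.

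Ion transporters fell in 14 of 21 cases with 0 rises (median -1.64). Slc26a3, the chloride-bicarbonate exchanger DRA, read 9.60, 9.72 and 9.67 against 4.59, 4.73 and 5.09. It fell by 4.86 ± 0.19 (adjusted p = 1.54e-08). The sodium-hydrogen exchanger Slc9a3 (NHE3) fell by 3.03 ± 0.33. Among genes of iron, copper and vitamins 12 of 27 fell and 3 rose (44.4% and 11.1%, against 16.8% and 20.2% of all genes). The ferroxidase Heph fell by 1.91 ± 0.16 and the copper carrier Slc31a1 by 1.5 ± 0.17. The iron genes Cybrd1 (7.11, 9.31 and 6.70 against 7.58, 9.39 and 10.78) and Slc40a1 (9.71, 10.30 and 8.13 against 7.38, 8.30 and 8.89) overlapped between the groups and varied widely within both.

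General epithelial genes had smaller differences than the enterocyte genes. Of 22 genes of epithelial structure 16 fell and 1 rose, with a median of -0.77. Krt8, a keratin of all simple epithelium, was 12.44, 12.45 and 12.55 against 12.33, 12.40 and 12.37, a difference of -0.11 (95% interval -0.36 to 0.13, adjusted p = 0.511). Krt18, its partner, rose by 1.65 ± 0.23 (adjusted p = 0.000122), from 9.57, 10.12 and 9.55 to 11.49, 11.33 and 11.37. Epcam, an adhesion molecule of the whole epithelium, fell by 1.01 ± 0.20 (by 0.654 on the arrays without pancreatic RNA). Cdh1, which encodes E-cadherin, was 0.31 ± 0.11 lower (adjusted p = 0.0497), a call that was lost in 15 of 22 settings, among them quantile normalisation (adjusted p = 0.838) and leaving out any one of the 6 treated arrays (adjusted p = 0.053 to 0.153). Genes of the microvillus fell further, Myo1a by 3.20 ± 0.19, Pls1 by 2.83 ± 0.17 and Vil1 by 2.35 ± 0.19.

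Of 25 measured junction genes 10 fell and 5 rose (20%, against 20.2% of all genes). Leaving out wild-type replicate 1 or 3 gave 3 rises, as did centring each array on its median. Ocln, which encodes occludin, fell by 1.07 ± 0.13 and Cgn, cingulin, by 1.2 ± 0.15. Gja1, the gap junction protein connexin 43, read 6.91, 7.19 and 6.94 against 9.78, 9.67 and 9.69 and rose by 2.70 ± 0.12 (adjusted p = 3.37e-08). Cldn4, a claudin of tight junctions, rose by 2.19 ± 0.32, with an adjusted p of 0.0513 on the arrays without pancreatic RNA alone. Tjp1, the scaffold ZO-1, differed by 0.02 (95% interval -0.28 to 0.32) and F11r, which encodes JAM-A, by -0.07 (95% interval -0.36 to 0.23), with overlapping arrays for both.

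**Figure D4:**
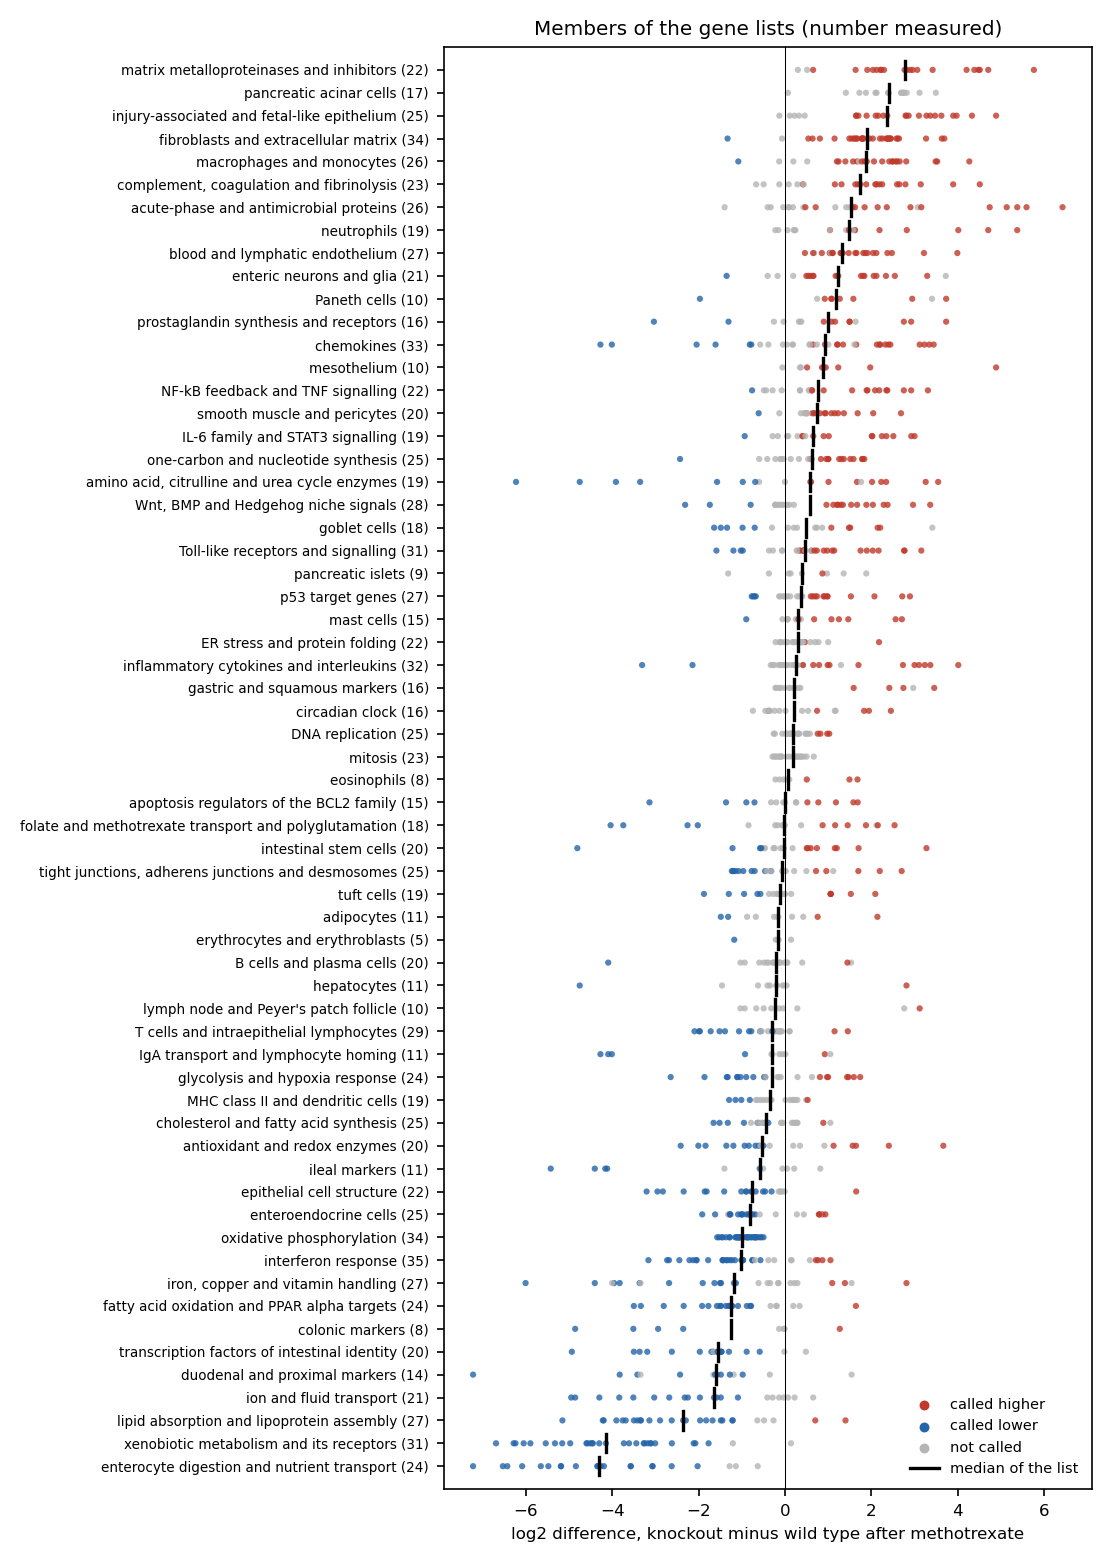
Log2 difference between treated knockout and treated wild type for each measured member of the 62 gene lists, red where called higher, blue where called lower and grey otherwise, with a black bar at the list's median and the number measured in brackets. Medians run from -4.31 for enterocyte digestion to 2.79 for matrix metalloproteinases, and the list of pancreatic acinar genes has a median of 2.40 with 0 calls, since 1 of 3 wild-type and 2 of 3 knockout arrays carry that RNA.

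The crypt differed by lineage. Olfm4, a marker of stem and early progenitor cells, read 10.80, 11.09 and 10.90 in the wild type and 7.35, 5.79 and 5.22 in the knockout. It fell by 4.81 ± 0.41 or 28.0-fold (adjusted p = 3.05e-06). Lgr5, the marker of cycling stem cells, overlapped between the groups at 5.93, 5.44 and 6.25 against 6.54, 5.73 and 5.24 (difference -0.04, 95% interval -0.73 to 0.66). Smoc2, a marker of crypt-base cells, rose by 1.70 ± 0.13 and the crypt factor Sox9 by 1.2 ± 0.30. Of 20 stem cell genes 8 rose and 4 fell (40% and 20%, against 20.2% and 16.8% of all genes). There were 5 rises when wild-type replicate 1 or knockout replicate 2 was left out. Leaving out knockout replicate 1 gave 7 falls, and leaving out its replicate 3 gave 2. Centring the arrays left 4 risen. On the arrays with pancreatic RNA 5 rose and 8 fell, and on those without it 11 and 2.

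Paneth cells guard the crypt base with antimicrobial proteins, and 7 of their 10 measured genes rose while 1 fell (median 1.18). Among these calls, that of Ang4 was lost in 12 of 22 settings, that of Spink4 in 7 and that of Defa24 in 1. Pla2g2a, an antibacterial phospholipase, was 4.92, 5.93 and 6.07 against 9.93, 9.34 and 8.85 (rise 3.73 ± 0.47, adjusted p = 6.83e-05). Mmp7, which activates defensins, rose by 2.95 ± 0.48. The goblet cell list of 18 had 5 higher and 5 lower (27.8% each, against 20.2% and 16.8% of all genes). Muc2, the main secreted mucin, read 10.24, 11.09 and 11.24 against 11.99, 11.56 and 11.23 (difference 0.74, adjusted p = 0.0584). The membrane mucins Muc3 and Muc4 fell by 1.34 ± 0.20 and 1.64 ± 0.23.

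Enteroendocrine genes fell in 14 of 25 cases and rose in 4 (56% and 16%, against 16.8% and 20.2% of all genes), with a median of -0.81. Rfx6, a factor of this lineage, was 5.37, 5.50 and 5.58 against 3.64, 3.48 and 3.57 and fell by 1.92 ± 0.12 (adjusted p = 3.05e-07). The progenitor factor Neurog3 fell by 1.28 ± 0.21, the hormone gene Sct by 1.62 ± 0.22 and Gip by 1.28 ± 0.19. Of 19 tuft cell genes 5 rose and 5 fell (26.3% each, against 20.2% and 16.8% of all genes). With quantile normalisation or centred arrays 8 fell. On the arrays with pancreatic RNA 5 rose and 2 fell, and on those without it 2 and 7. The tuft cell channel Trpm5 fell by 1.30 ± 0.26 and Rgs13 by 1.88 ± 0.22. Dclk1, the usual tuft marker, overlapped between the groups (5.59, 4.82 and 4.48 against 5.03, 4.98 and 4.66).

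Epithelium that heals after injury is known to switch on a set of genes shared with the fetal gut, and 20 of 25 measured genes of that kind rose and 0 fell (median 2.37). Anxa1, a lipid-binding mediator of resolution, was 5.30, 5.75 and 5.53 against 9.04, 9.35 and 9.06. It rose by 3.62 ± 0.18 (adjusted p = 7.35e-08). Anxa8 rose by 3.97 ± 0.19, Il1rn, the IL-1 receptor antagonist, by 3.37 ± 0.14, and Msln, which also marks mesothelium, by 4.89 ± 0.19. Clu, which encodes clusterin, rose by 3.27 ± 1.06 from 8.09, 7.94 and 5.42 to 9.57, 10.91 and 10.80 (adjusted p = 0.0307), and its adjusted p was 0.132 when wild-type replicate 3 was left out and 0.0922 and 0.0823 when knockout replicates 2 and 3 were. Several of these genes are also expressed by fibroblasts or mesothelium, so the cell of origin was not tested. In the mesothelium list 7 of 10 genes rose and 0 fell. Among its defining markers Upk3b was 4.69, 4.94 and 4.64 against 5.05, 5.25 and 5.07 (adjusted p = 0.24), and Wt1 was 3.13, 3.06 and 3.08 against 3.95, 4.01 and 3.89 (rise 0.86 ± 0.08). All these Wt1 values lie under the array medians of 4.37 to 4.56 and are not shown to be above background. The calls of Lrrn4 and Bnc1, also of this list, were lost in 6 and 9 of 22 settings.

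Stromal genes were higher almost throughout. Of 34 genes of fibroblasts and matrix 32 rose and 1 fell (median 1.89), and the list means of 6.64, 6.68 and 6.67 in the wild type and 8.45, 8.60 and 8.58 in the knockout were narrow within each group. Col1a1, the chief fibrillar collagen, was 7.62, 7.57 and 7.70 against 9.32, 9.28 and 9.31. It rose by 1.67 ± 0.13 (adjusted p = 1.86e-06). Pdgfra, the growth factor receptor of gut fibroblasts, rose by 2.26 ± 0.14, the basement membrane chains Col4a2 and Col18a1 by 2.36 ± 0.12 and 3.27 ± 0.11, the crosslinking enzyme Lox by 3.63 ± 0.18 and Thbs1, a matrix protein released in wounds, by 3.69 ± 0.17.

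In the list of matrix proteases and their inhibitors 20 of 22 genes rose with 0 falls (median 2.79). Mmp8, a collagenase, read 2.39, 2.39 and 2.54 against 7.51, 7.02 and 6.90 (rise 4.71 ± 0.14, adjusted p = 3.29e-09). Timp1, an inhibitor of these proteases, rose by 4.38 ± 0.18, Timp2 by 2.23 ± 0.10, Mmp10 by 2.77 ± 0.20, Mmp13 by 2.90 ± 0.38 and Mmp19 by 3.42 ± 0.18. Plat, the tissue plasminogen activator, rose by 4.51 ± 0.16 and Plaur, the receptor of the urokinase type, by 3.89 ± 0.25. In the list of complement, coagulation and fibrinolysis 17 of 23 rose and 0 fell (median 1.74), among them F3, the tissue factor that starts clotting (2.65 ± 0.25), and the complement inhibitor Serping1 (2.09 ± 0.12).

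Of 28 genes of Wnt, BMP and Hedgehog signals 14 rose and 3 fell. Grem1, an antagonist of BMP proteins that shields stem cells, was 8.02, 7.96 and 7.49 against 11.23, 11.19 and 11.14 and rose by 3.36 ± 0.22 or 10.3-fold (adjusted p = 4.29e-07). Rspo3, which amplifies Wnt signals, rose by 2.29 ± 0.11, Wnt5a by 2.03 ± 0.16, the Wnt inhibitor Sfrp1 by 2.96 ± 0.21 and Bmp4 by 1.53 ± 0.16. Ihh, the hedgehog ligand made by enterocytes, fell by 2.31 ± 0.24, and Hhip, a hedgehog-binding protein, by 1.74 ± 0.16.

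Vessel genes rose in 25 of 27 cases with 0 falls (median 1.33). Cdh5, the cadherin of endothelium, was 6.34, 6.21 and 6.36 against 8.26, 8.02 and 8.08 and rose by 1.81 ± 0.11 (adjusted p = 3.6e-07). Pecam1 rose by 1.66 ± 0.15 and Vcam1, an adhesion molecule for leukocytes, by 2.37 ± 0.13. Smooth muscle and pericyte genes rose in 13 of 20 cases and fell in 1 (median 0.74). Pdgfrb, the receptor of pericytes, rose by 2.69 ± 0.10, while Myh11, the contractile myosin, read 9.73, 9.58 and 9.23 against 9.85, 9.94 and 9.85 (difference 0.37, adjusted p = 0.163). Among 21 genes of nerve cells and glia of the gut wall 16 rose and 1 fell (median 1.22). Vip, a neuropeptide of the gut wall, rose by 3.29 ± 0.29 from 4.31, 4.31 and 4.69 to 7.74, 7.79 and 7.65, and Stmn2 rose by 2.34 ± 0.19.

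Monocyte and macrophage genes were mostly higher in the treated knockout, while most neutrophil genes were not called. Among 26 genes of monocytes and macrophages 21 rose, with 1 fall (median 1.88), with list means of 5.19 to 5.72 in the wild type and 7.29 to 7.42 in the knockout. Cd68, a lysosomal protein of phagocytes, was 5.97, 6.71 and 6.15 against 8.59, 8.96 and 8.97 and rose by 2.56 ± 0.17 (adjusted p = 5.98e-07). Mrc1, the mannose receptor, rose by 4.27 ± 0.28, the haemoglobin scavenger receptor Cd163 by 3.49 ± 0.20 and Csf1r by 2.06 ± 0.24. Of 19 neutrophil genes 8 rose, 0 fell and 11 were not called. Mmp8 and Lcn2 of this list, also counted in the protease and acute-phase lists, were higher on every knockout array than on any wild-type array. By contrast, S100a8 and S100a9 were high in 1 array only. S100a8 read 2.87, 2.82 and 3.06 in the wild type and 6.88, 3.20 and 3.16 in the knockout (adjusted p = 0.154), and S100a9 read 7.32 in knockout replicate 1 and at most 3.59 elsewhere. The neutrophil list mean was 6.02 in that array and 4.57 and 4.66 in the other knockout arrays. Mast cell genes rose in 7 of 15 cases and fell in 1, with Mcpt1, a mast cell protease, up by 2.56 ± 0.25 and Mcpt2 by 2.71 ± 0.37.

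Genes of T cells, those within the epithelium included, fell in 11 of 29 cases and rose in 2 (median -0.29). Cd8a, a co-receptor of cytotoxic T cells, was 5.66, 5.05 and 5.48 against 3.69, 3.93 and 3.41 and fell by 1.72 ± 0.18 (adjusted p = 1.91e-05). Cd3g fell by 1.99 ± 0.29 and the granzymes Gzmb and Gzma by 2.10 ± 0.25 and 1.97 ± 0.25. In untreated mice the same genes differed by -0.86, -0.90, -0.80 and -1.01, none called. For the arrays with pancreatic RNA alone 7 of the 29 fell. Of 20 genes of B and plasma cells 1 rose and 1 fell (5% each, against 20.2% and 16.8% of all genes). Cd79a, part of the B cell receptor, was high in wild-type replicate 1 and knockout replicate 2, at 7.23, 4.29 and 4.39 against 4.36, 6.70 and 4.51. The list of follicle genes, which shares members with it, had means of 6.11, 4.56 and 3.88 against 4.26, 5.85 and 5.20, and the part of follicle RNA in these values was not tested. The gene that fell was Pigr, the epithelial receptor that carries IgA into the lumen, at 11.86, 11.61 and 11.69 against 8.25, 7.50 and 7.13 (fall of 4.09 ± 0.23, adjusted p = 1.89e-07). Jchain, the joining chain of IgA, differed by 0.01 (95% interval -0.59 to 0.61). The epithelial chemokines that draw IgA plasma cells and T cells to the gut, Ccl28 and Ccl25, fell by 4.27 ± 0.15 and 4.01 ± 0.23.

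MHC class II genes overlapped between the groups, with H2-Aa at 9.34, 9 and 8.81 against 8.07, 9.71 and 9.71. Knockout replicate 1 was the lowest of all 6 arrays for H2-Aa, H2-Ab1, H2-Eb1 and Cd74. Without it 5 genes of the list of 19 rose, against 1 with it. Lower genes numbered 4 (21.1%, against 16.8% of all genes), among them the dendritic cell gene Cd209a (1.29 ± 0.17 lower), and 8 with centred arrays. On the arrays with pancreatic RNA 5 rose and 1 fell, and on those without it 0 and 9.

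Interferon-response genes fell, 25 of 35 with 4 risen (median -1.01). Ifit1, an antiviral RNA-binding protein, was 8.35, 6.71 and 7.84 against 4.10, 4.50 and 4.82. It fell by 3.16 ± 0.35 (adjusted p = 2.53e-05). Irf7, the factor that amplifies the interferon response, fell by 2.21 ± 0.36, Irf1 by 1.78 ± 0.24, Cmpk2 by 2.73 ± 0.31 and the immunoproteasome subunit Psmb9 by 2.13 ± 0.19. The list mean was 7.21, 6.39 and 7.08 in the wild type, lowest in replicate 2, and 5.81, 5.85 and 5.92 in the knockout. Fitted on the arrays with pancreatic RNA alone, which hold that wild-type array, 15 genes fell, Ifit1 by 2.05 and Irf7 by 1.32. Without it 2 genes of the list rose, as with centred arrays.

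**Figure D5:**
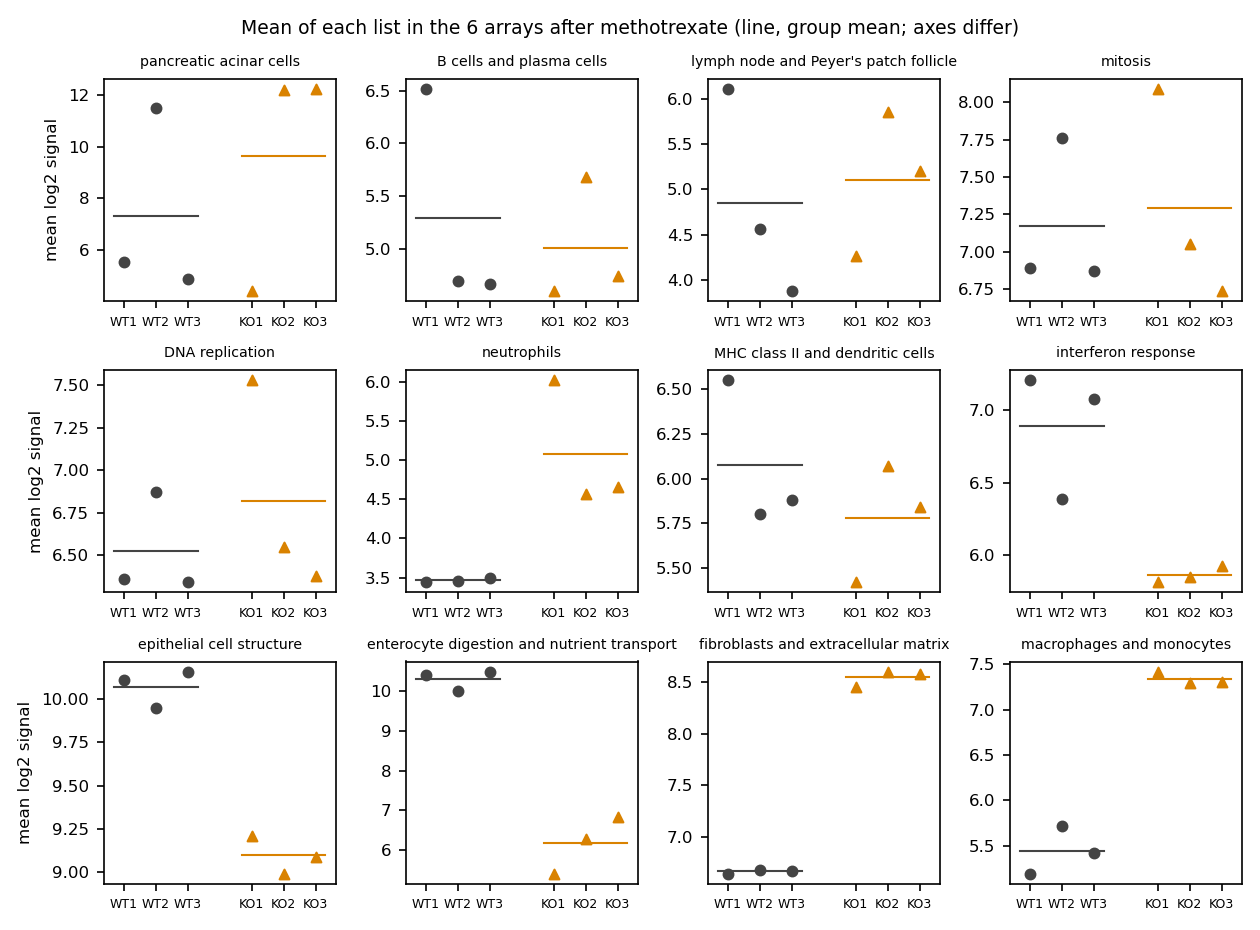
Mean log2 signal of 12 gene lists on each treated wild-type array (grey circles, WT1 to WT3) and treated knockout array (orange triangles, KO1 to KO3), with group means as lines and a separate axis for each list. Lists of fibroblasts, macrophages, enterocyte digestion and interferon response separate the groups, while acinar, B cell, mitosis and DNA replication lists overlap between the groups.

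In the list of 31 Toll-like receptors and signalling genes, adaptors and kinases included and Tlr2 among them, 17 rose, 4 fell and 10 were not called. The rises and falls were 54.8% and 12.9% of the list, against 20.2% and 16.8% of all genes. Tlr4, the receptor for lipopolysaccharide, was 3.21, 3.36 and 3.52 against 5.24, 5.65 and 5.30 and rose by 2.03 ± 0.13 (adjusted p = 4.08e-07). Tlr13, a receptor for bacterial RNA, rose by 2.76 ± 0.27, the lipopolysaccharide-binding protein Lbp by 3.16 ± 0.28, the adaptor Myd88 by 0.90 ± 0.11 and Irak3, which damps signalling, by 2.77 ± 0.19. Tlr1, a partner of TLR2, differed by 0.27 (95% interval -0.29 to 0.83). Ticam1, the adaptor TRIF of TLR3 and TLR4, fell by 1.59 ± 0.13. Feedback genes of NF-kB rose in 13 of 22 cases and fell in 1. The inhibitor Nfkbia rose by 0.62 ± 0.15, a call lost with centred arrays (adjusted p = 0.0801), and Tnfaip3 (A20) overlapped between the groups (adjusted p = 0.0868).

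Among cytokines 12 of 32 rose and 2 fell. Il1a, the alarmin form of interleukin-1, was 3.84, 3.12 and 3.93 against 6.54, 6.3 and 6.25 and rose by 2.73 ± 0.21 (adjusted p = 1.38e-06). Il1b was high in knockout replicate 1 only, at 7.62 against 3.89 to 4.34 on the other arrays (adjusted p = 0.177). Tnf was 4.84, 4.77 and 4.76 against 5.76, 4.89 and 4.96 (adjusted p = 0.14). Il6 rose by 0.65 ± 0.11 (by 0.425 with centred arrays) but stayed at 2.76 to 2.93 in the knockout. In the list of the IL-6 family and STAT3 signalling 12 of 19 genes rose and 1 fell (median 0.65). The shared receptor chain Il6st rose by 2.02 ± 0.10, the oncostatin M receptor Osmr by 2.92 ± 0.10, Il11 by 3.00 ± 0.29 and the feedback inhibitor Socs3 by 2.35 ± 0.32. Il18, a cytokine of the epithelium, fell by 3.31 ± 0.24 from 8.42, 8.49 and 8.41 to 5.36, 4.77 and 5.28.

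Chemokines rose in 16 of 33 cases and fell in 6 (48.5% and 18.2%, against 20.2% and 16.8% of all genes). Ccl11, which draws eosinophils, was 7.13, 7.20 and 6.81 against 10.43, 10.37 and 10.66 (rise 3.44 ± 0.17, adjusted p = 5.52e-08). The neutrophil chemokines Cxcl2 and Cxcl5 rose by 2.39 ± 0.26 and 3.23 ± 0.36 and the monocyte chemokine Ccl2 by 2.19 ± 0.39, each highest in knockout replicate 1. On the arrays without pancreatic RNA, which hold that array, Ccl2 rose by 3.46. Cxcl1 overlapped between the groups (adjusted p = 0.0994). Acute-phase and antimicrobial genes rose in 14 of 26 cases with 0 falls (median 1.53). Lcn2, which starves bacteria of iron, was 4.92, 5.75 and 5.33 against 10.78, 11.03 and 10.33 and rose by 5.38 ± 0.21 (adjusted p = 1.54e-08). Lrg1 rose by 5.13 ± 0.44 and haptoglobin, Hp, by 4.74 ± 0.34. The lectin genes Reg3b (10.16, 11.44 and 11.15 against 11.60, 12.41 and 12.24, adjusted p = 0.0504) and Reg3g (difference 0.43, 95% interval -0.48 to 1.33) did not pass. Prostaglandin genes rose in 8 of 16 cases and fell in 2 (50% and 12.5%, against 20.2% and 16.8% of all genes). The synthases Ptgs2 and Ptges rose by 2.75 ± 0.28 and 2.92 ± 0.13, while Hpgd, which degrades prostaglandins, fell by 3.04 ± 0.17.

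Genes that move and retain methotrexate and folate differed one by one, 6 of 18 higher and 4 lower (median -0.02). These shares of 33.3% and 22.2% stand beside 20.2% and 16.8% of all genes. Slc46a1, the proton-coupled folate transporter of the jejunum, was 10.89, 10.60 and 10.88 against 5.68, 6.99 and 7.59. It fell by 4.04 ± 0.41 (adjusted p = 1.21e-05). The reduced folate carrier Slc19a1 overlapped between the groups at 8.68, 8.69 and 8.05 against 8.47, 8.13 and 8.15. Fpgs, which adds glutamates that keep folates and methotrexate in the cell, rose by 1.45 ± 0.34 (by 0.782 on the arrays with pancreatic RNA). Among efflux pumps Abcb1a fell by 2.26 ± 0.18 and Abcg2 by 2.02 ± 0.15, and Abcb1b and Abcc4 rose by 2.15 ± 0.14 and 2.54 ± 0.19. Abcb1a and Abcb1b are close paralogs that may share probe sequence.

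Synthesis of nucleotides, which methotrexate blocks, had 13 of 25 genes higher and 1 lower (median 0.62). Mthfd1l, a mitochondrial enzyme of folate metabolism, was 5.46, 6.27 and 5.40 against 7.69, 7.44 and 7.4 and rose by 1.80 ± 0.27 (adjusted p = 0.000257). Ctps, the CTP synthase, rose by 1.78 ± 0.28 and Paics, of purine synthesis, by 1.36 ± 0.14. Leaving out wild-type replicate 3 gave 8 rises, and leaving out knockout replicate 1 gave 4 falls, as did centring. Fitted on arrays with pancreatic RNA alone 8 rose and 7 fell, Mthfd1l and Ctps rising by 1.15 and 1.03, and on those without it 20 rose.

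Proliferation genes gave opposite answers within those sets of arrays. Over all arrays 4 of 25 genes of DNA replication rose (16%, against 20.2% of all genes) and 0 fell, and of 23 mitosis genes 0 rose and 0 fell. Mki67, a protein of dividing cells, read 8.46, 9.05 and 8.48 in the wild type and 9.55, 8.52 and 8.21 in the knockout (difference 0.10, 95% interval -0.57 to 0.76). Knockout replicate 1 was the highest of the 6 arrays, at a mitosis mean of 8.09, and wild-type replicate 2 came next at 7.76. On the arrays without pancreatic RNA, which hold knockout replicate 1 but not wild-type replicate 2, 25 of 25 replication and 23 of 23 mitosis genes were called higher. On the arrays with it 9 and 19 were called lower and 0 higher. Each such fit has a single treated array in one of the genotypes, which is assumed to vary like the others. Leaving out wild-type replicate 1 or 3 left 1 replication gene risen, and leaving out knockout replicate 1 gave 2 lower genes in each list.

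Targets of p53, the factor activated by DNA damage, rose in 12 of 27 cases and fell in 4. These shares of 44.4% and 14.8% stand beside 20.2% and 16.8% of all genes. Leaving out replicate 1 of either genotype, or wild-type replicate 3, gave 2 falls. On the arrays with pancreatic RNA 1 fell, and on those without it 6. Phlda3, a p53-induced brake on AKT, was 4.87, 5.32 and 5.33 against 7.72, 8 and 7.95 and rose by 2.71 ± 0.13 (adjusted p = 6.56e-08). Eda2r, a receptor of the TNF family, rose by 1.53 ± 0.18. The cell-cycle inhibitor Cdkn1a overlapped between the groups (10.03, 9.89 and 10.28 against 9.34, 10.32 and 10.52; difference -0.01, 95% interval -0.61 to 0.59), and so did the death gene Bbc3 (difference -0.04, 95% interval -0.33 to 0.25). Among BCL2-family genes 5 of 15 rose (33.3%, against 20.2% of all genes) and 4 fell (26.7%, against 16.8%). The death-promoting Bok and Bcl2l11 were up by 1.68 ± 0.14 and 1.18 ± 0.14. Of the redox genes 5 of 20 rose (25%, against 20.2% of all genes) and 10 fell. Hmox1, which degrades haem, rose by 3.67 ± 0.45 from 4.75, 5.72 and 5.18 to 8.25, 8.65 and 9.75, while catalase, Cat, fell by 2.42 ± 0.14 and the quinone reductase Nqo1 by 1.84 ± 0.31.

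Genes of other gut regions were also compared. Duodenal and proximal markers fell in 9 of 14 cases, ileal markers in 5 of 11 and colonic markers in 4 of 8, with 0, 0 and 1 risen, and most of those that fell are enterocyte genes. The ileal genes Fabp6 and Slc10a2 stayed below 3.1 on all 6 arrays. Of 16 gastric and squamous markers 4 rose (25%, against 20.2% of all genes) and 0 fell. Tff1, a trefoil peptide of the stomach, was 3.87, 3.76 and 4.00 against 6.63, 7.88 and 7.50 and rose by 3.46 ± 0.36 (adjusted p = 1.44e-05), and Gkn1 and Gkn2, proteins of the gastric surface, rose by 2.42 ± 0.19 and 2.74 ± 0.24. Muc5ac, the mucin of that surface, was 2.59 to 2.96 on all 6 arrays. Hepatocyte genes had 1 of 11 higher and 1 lower (9.09% each, against 20.2% and 16.8% of all genes). The one that rose was Trf, transferrin (2.81 ± 0.32). Of the clock genes 4 of 16 rose (25%) and 1 fell (6.25%), against 20.2% and 16.8% of all genes. Per1, a repressor of the clock, was 6.15, 5.68 and 5.50 against 7.09, 8.75 and 8.85 and rose by 2.45 ± 0.47 (adjusted p = 0.00139), and by 1.27 on the arrays without pancreatic RNA. The time of day of sampling is not recorded.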

How the data were processed

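Total RNA of the proximal jejunum of 12 mice was hybridised to Affymetrix arrays. The authors deposited log2 values per probe set, made with RMA (background correction, normalisation between arrays and summary of probes), per the submitters' processing notes. Its version, the build and the probe annotation: not given in the sources used here. Values entered the fit unchanged. Of 35556 probe sets, 21218 had 1 gene symbol in the platform annotation, 1881 had several and 12457 are unnamed here. They gave 18820 genes, 1386 of them with more than 1 probe set, for which the brightest on average was kept. No columns of other samples were found. Array medians were 4.37 to 4.56. Arrays give no read depth, and their number limits the precision.

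All 12 arrays entered 1 fit with limma 3.58.1, run under R 4.3.3 (lmFit, then eBayes; a mean per group, 8 residual degrees of freedom). The contrast was treated knockout minus treated wild type, with the untreated contrast and the difference of both beside it. P-values were adjusted by Benjamini-Hochberg over 18820 genes and called under 0.05, with no minimum fold. Intervals are 95% intervals of the fit, and the labels do not say more of the mice than that each array is a separate one, so p-values measure the spread between these mice. With 3 mice per group an exact permutation test could not go below 0.10 two-sided, so none was used. The fit was also run on simulated data in which genes varied independently and few were changed. Such data lack the tissue differences between arrays described above, so that run is no check of false calls here.

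The comparison, the 62 gene lists, their members and the rule for named genes were chosen with earlier results of these data known. The rule names Tlr2, the 15 largest rises and 15 largest falls among called genes without overlap and without predicted genes, and in each list the first 4 genes and up to 4 further called members with the smallest p. Cyp1a1 is named outside it. Lists were described by counts and medians, with no set test. Promoters came from the RefSeq table of GRCm38.p6, and gene positions from its gene table were used for neighbourhood only. Fits on arrays with or without pancreatic RNA, split where the mean of the acinar list is above 8, were added after the data were seen. The other alternatives were quantile normalisation, centring, leaving out dim genes (below the 25th percentile), averaged probe sets per gene, array weights, treated arrays only, a block for the replicate number, a robust variance trend, a pancreatic term, leaving out each array, all probe sets and a log2 fold minimum of 1.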

Additional observations from a re-analysis of the deposited data

Results flagged for a closer look

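For the 10 largest rises and 10 largest falls the genotype difference in treated mice differed from that in untreated mice in limma's test of that change, adjusted over all genes, which 4479 of 18820 genes passed. In log2 units the treated difference minus the untreated one was 6.5 for Saa3, 6.01 for Mmp3, 5.74 for Pi15, 5.49 for Serpina3n and 5.21 for Alpl. It was 5.09 for Lcn2, 5.27 for Lrg1, 4.93 for Igfbp5, 4.66 for Msln and 4.96 for Hp. Among the falls it was -7.05 for Lct, -6.59 for Sectm1b, -6.33 for Cyp2b10, -6.38 for Slc2a2 and -6.19 for Slc6a20a. It was -5.79 for Adh4, -6.04 for Ugt2a3, -5.69 for Slc27a2, -5.90 for Cyp3a25 and -6.19 for Otc. These genes were chosen for a large difference in treated mice, so a large change against untreated mice is partly set by the choice.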

How the results depend on the processing

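The 6948 calls became 7247 with quantile normalisation, 7705 with centred arrays, 6295 with the treated arrays alone and 8962 with array weights, and lay between 5852 (without replicate 3 of the treated wild type) and 7210 (without replicate 1 of the treated knockout) when 1 array was left out. A log2 fold minimum of 1 left 3284 genes, 1842 higher and 1442 lower. Centring gave 5075 lower genes in place of 3155. Leaving out 1 array gave 3131 to 3872 higher and 2704 to 3405 lower genes. Windows of 5 and 20 Mb around Tlr2 held 40 and 147 called genes, against 82 within 10 Mb. The fits on arrays with or without pancreatic RNA reversed 7 named genes, none of them called over all arrays. With it Mki67 was -0.684 and Sqle -0.615. Without it Top2a was 1.31, Mthfd1 0.537, Ascl2 0.757, H2-Aa -1.01 and H2-Eb1 -0.993. The cause was not tested.

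Of 421 named genes 338 were called, and 295 of these kept call and direction in all 22 settings chosen earlier, while no named gene reversed in them. No pairing of the mice by replicate number is stated. Deviations of same-numbered treated arrays correlated at 0.12, 0.25 and -0.15 and those of other pairs at -0.28 to 0.25. These few values cannot exclude a pairing. The acinar mean followed the number in part, at 4.41 to 5.82 in replicate 1 of every group and 11.52 to 12.21 in replicate 2. With the number as a replicate block 6977 genes were called over all arrays and 5380 with only the treated arrays. Signal near background limits Il6, Muc5ac and other dim genes, whose differences RMA values compress.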
